A study of Homo sapiens with 6 samples.

Results

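The lysyl oxidase family was examined in Rh30 cells exposed to the study's drug. The family was taken by symbol, and its 5 members, LOX, LOXL1, LOXL2, LOXL3 and LOXL4, were all found among the 35268 named genes of the expression table. Rh30 is an established cell line of fusion-positive rhabdomyosarcoma (FP-RMS), a cancer of muscle-like cells that carries the PAX3-FOXO1 fusion gene. The drug is a small molecule used here against ETS1, a transcription factor of the ETS family, and the comparison asks about YK-4-279's effect on gene expression in FP-RMS cells. Polyadenylated RNA was sequenced from 3 libraries of cells given 1 µM of it, dissolved in DMSO, and from 3 libraries of cells given DMSO alone, both for 24 hours. Every library came from the same cell line, and the labels do not say whether the replicates were separate cultures, so the p-values measure the spread between these libraries, which may be technical.

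Lysyl oxidases are secreted copper enzymes that oxidize lysine residues of collagen and elastin, after which the chains cross-link to one another and the matrix stiffens. LOX and LOXL1 form the branch made with a propeptide that proteases remove, and LOXL1 is known for its part in elastic fibre upkeep. LOXL2, LOXL3 and LOXL4 form the other branch, which carries scavenger receptor domains, and LOXL2 is known to act on basement membrane collagen. In solid tumors the family is studied for its links to invasion and to the hypoxic response.

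None of the 5 lysyl oxidase genes passed the test between drug and DMSO (limma, adjusted p under 0.05), which 3.41% of all 13930 genes tested did, and none had an unadjusted p under 0.05. The fitted changes ran from -0.10 for LOXL3 to 0.18 for LOXL4 on the log2 scale. All 5 genes were expressed, with LOXL2 and LOXL1 well above the other 3. LOXL4 was the 1 member whose groups did not overlap, being higher in each drug-treated library than in each DMSO library, a separation that 10.9% of all genes tested showed. LOXL1 was called lower without 1 DMSO library, as were 8.46% of all genes tested, and also with all 6 after a correction for base composition and length, as were 7.49%.

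The libraries held between 16724650 and 24677433 reads. Values are normalized counts, that is, each library's reads after division by its own size factor. DMSO replicate 1, the library with the fewest reads, stood apart: its mean correlation with the others was 0.989 against 0.992 to 0.993 for the rest, and mitochondrially encoded protein genes took 6.05% of its reads against 4.74% to 5.03% elsewhere. Results on the family are therefore also given without it. The muscle lineage of the cells was checked with markers led by MYOD1, the muscle determination factor, which had 34516 to 39146 normalized counts, and 10 of 12 rhabdomyosarcoma markers were measurable, with MYF5 and MYF6 near 0. The 12 summed to between 66991 and 76269 normalized counts in DMSO and between 72461 and 75748 with the drug. None was called, but 5 of the 10 had an unadjusted p under 0.05 (2600 of all 13930 genes did). MYOG, DES, MYH3 and MYH8, genes of muscle differentiation, differed by 0.23, 0.14, 0.60 and 0.80 on the log2 scale (adjusted p = 0.224, 0.255, 0.116 and 0.212, by limma), and NOS1 had -0.12 (adjusted p = 0.244). Without DMSO replicate 1 the 4 were 0.08, 0.08, 0.52 and 0.58, none of them called, and NOS1 was -0.12 and called (adjusted p = 0.0341).

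Markers of other cells were measured too, and a few were not low. The 9 fibroblast markers, of interest because fibroblasts secrete lysyl oxidases, summed to between 726 and 851 in DMSO and between 849 and 867 with the drug, with DCN, COL6A3, PDPN and ACTA2 near 0. Most of that sum was the growth factor receptors PDGFRA, with means of 365 in DMSO and 435 with the drug (log2 fold change 0.27, limma unadjusted p = 0.0420, adjusted p = 0.250), and PDGFRB, with 365 and 360. PDGFRA was 0.42 and called higher without DMSO replicate 1 (adjusted p = 0.000279). The 6 endothelial markers summed to between 235 and 318 in DMSO and between 221 and 252 with the drug, with ERG at 0. Most of that was TEK, the angiopoietin receptor, with means of 232 in DMSO and 176 with the drug and no overlap between the groups (log2 fold change -0.38, limma unadjusted p = 0.0109, adjusted p = 0.128), and without DMSO replicate 1 it was -0.26 (adjusted p = 0.157). The other 3 endothelial markers tested lay above 0, KDR at 0.71, CDH5 at 0.38 and PECAM1 at 0.13, and the median of the 4 was 0.26. The 5 epithelial markers summed to between 131 and 142 and between 130 and 175. The 5 blood cell markers summed to at most 1.00. With all 6 libraries no marker of any list passed the test, and the part of other cell types in the values of the family was not tested.

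Of the members, LOXL4 was the one with separate groups, and its upstream sequence is shown because the drug is directed at ETS factors, whose recognition core is GGAA. The 250 bases before its RefSeq start (GRCh38.p14, chr10:98268195-98268444, minus strand) are given with the letters GGAA, or TTCC on the other strand, in capitals.

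LOXL4: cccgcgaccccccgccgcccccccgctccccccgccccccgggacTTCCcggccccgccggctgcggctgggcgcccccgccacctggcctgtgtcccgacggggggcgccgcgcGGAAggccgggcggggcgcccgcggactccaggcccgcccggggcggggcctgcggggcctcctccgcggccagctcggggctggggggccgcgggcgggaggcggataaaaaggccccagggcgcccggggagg

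The window held 2 matches, beginning 205 and 135 bases before the start, and its GC content was 86.4% against a median of 58% over 35116 RefSeq promoter windows of the same length. Of those windows, 76.5% held GGAA at least 2 times, with a median of 3. The longer form CCGGAAG, which contains GGAA, was not in it, and 8.52% of windows had it. Among the other promoters with a window, LOX and LOXL3 have several annotated starts. The window of the most upstream start held 4 GGAA matches at LOX and 5 at LOXL3, and the window of LOXL1, all 250 bases of which are exonic in the GENCODE annotation, held 3. The other 2 LOX windows held 2 and 3, and the other LOXL3 window held 2. CCGGAAG was in none of these windows, and LOXL2 has no window here. The letters ACGTG are 1 form of the core bound by hypoxia-inducible factors, and other forms were not searched. They were found 4 times in the window of the most upstream LOX start, 154 of whose 250 bases are exonic. Each of the other 2 LOX windows held them 1 time. At least 1 match was in 18.5% of all windows and at least 3 were in 1.55%. There were 0 matches to ACGTG before LOXL1, LOXL3 and LOXL4. Both strands were searched, and a match is a description of the letters only.

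LOX, the founding enzyme of the family, lies on chromosome 5 (hg38, 122063195 to 122078413, minus strand, ENSG00000113083.15). DMSO replicates 1 to 3 had 248, 197 and 213 normalized counts, and drug-treated replicates 1 to 3 had 255, 214 and 250, on 197 to 298 reads per library. The groups overlapped, since DMSO replicate 1 lay between the drug-treated libraries. The means were 219 ± 26.4 (SD, n = 3) and 240 ± 22.5 (SD, n = 3), a log2 fold change of 0.13 (SE 0.12, 95% confidence interval -0.12 to 0.39, limma adjusted p = 0.592). As a percentage the interval reached from -8.30% to 30.7%, so a modest rise was not detectable at this spread. In bulk RNA fewer cells that express a gene and less RNA per cell cannot be told apart, which holds for all values here.

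LOXL1, the member tied to elastic fibres, lies on chromosome 15 (73925989 to 73952137, plus strand, ENSG00000129038.16). It had 1208, 1522 and 1477 normalized counts in DMSO, and 1422, 1275 and 1275 with the drug. DMSO replicate 1 was the lowest of all 6 libraries, while the other 2 DMSO libraries were above all 3 drug-treated ones. The means were 1402 ± 170 (SD, n = 3) and 1324 ± 85.3 (SD, n = 3), and the log2 fold change was -0.08 (SE 0.09, interval -0.27 to 0.11, limma adjusted p = 0.674).

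LOXL2, the member with the highest level per length, lies on chromosome 8 (23296897 to 23425328, minus strand, ENSG00000134013.16). Its normalized counts were 2658, 3052 and 3046 in DMSO and 2939, 3045 and 2991 with the drug. The drug-treated values all lay inside the range of the DMSO values, whose low end was again DMSO replicate 1. The means were 2919 ± 226 (SD, n = 3) and 2992 ± 52.9 (SD, n = 3). The log2 fold change of 0.04 (SE 0.07, interval -0.10 to 0.18, limma adjusted p = 0.796) had the narrowest interval of the family, from -6.86% to 13.2%.

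LOXL3, a member of the scavenger receptor branch known from palate and cartilage development, lies on chromosome 2 (74532258 to 74555690, minus strand, ENSG00000115318.12). The DMSO libraries had 351, 459 and 436 normalized counts and the drug-treated libraries 398, 385 and 369. As with LOXL1, DMSO replicate 1 was the lowest library and the other 2 DMSO libraries were the highest. The means of 415 ± 57.0 (SD, n = 3) and 384 ± 14.2 (SD, n = 3) gave a log2 fold change of -0.10 (SE 0.10, interval -0.33 to 0.12, limma adjusted p = 0.635).

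LOXL4, the remaining member of that branch, lies on chromosome 10 (98247690 to 98268194, minus strand, ENSG00000138131.4). It had 310, 345 and 355 normalized counts in DMSO and 367, 393 and 382 with the drug, on 246 to 428 reads per library. Each drug-treated library was above each DMSO library, though the gap between DMSO replicate 3 and drug-treated replicate 1 was small beside the spread. The mean went from 337 ± 23.4 (SD, n = 3) to 381 ± 13.4 (SD, n = 3), and the log2 fold change was 0.18 (SE 0.09, interval -0.02 to 0.37, limma unadjusted p = 0.0696, adjusted p = 0.310). The exact two-sided permutation test gave p = 0.1, the smallest that 3 against 3 allows. Without DMSO replicate 1 the groups stayed apart, and the fitted change was 0.12.

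**Figure D1:**
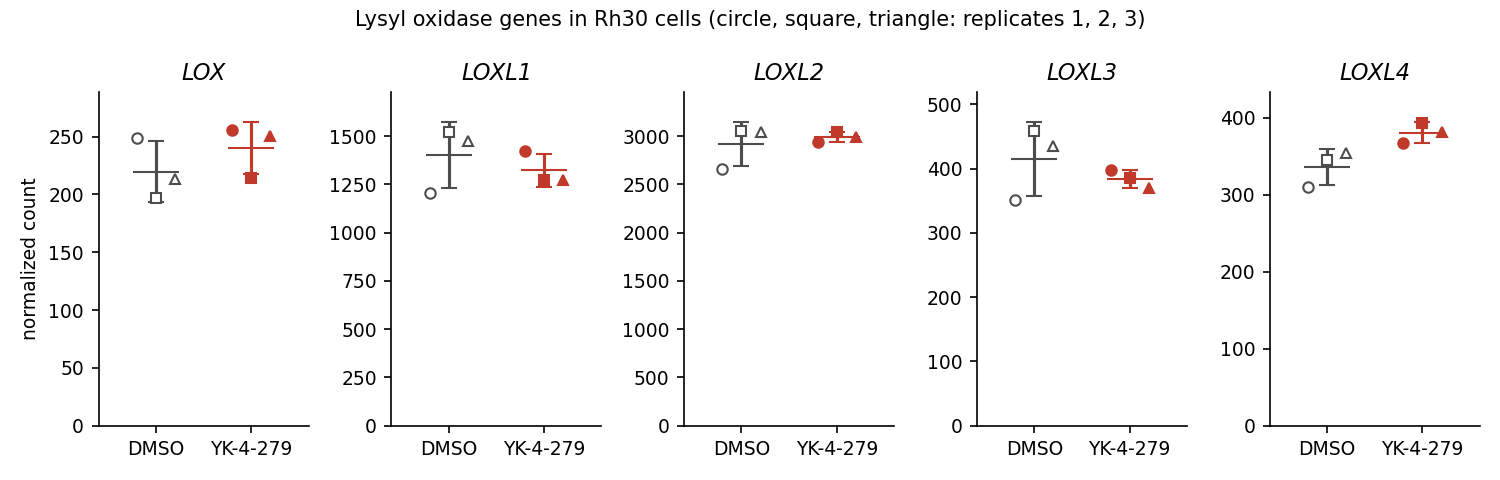
Normalized counts of the 5 lysyl oxidase genes in each library, with a separate vertical axis from 0 for each gene. Open points are DMSO, filled points drug, horizontal lines are means and bars are 1 SD (n = 3). The groups are separate for LOXL4 alone, and DMSO replicate 1 (open circle) is the lowest point for LOXL1, LOXL2, LOXL3 and LOXL4.

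Of all genes tested, 176 passed as higher and 299 as lower with the drug, a balance that was reversed with eBayes without trend (30 and 3), and the median log2 fold change over the 13930 was -0.01. For the family the count was 0 of 5 and the median 0.04. With 5 members, a count of 0 is near what that background gives, and nothing particular to the family is read from it.

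Levels were compared within the family per length, as normalized counts per kilobase of merged exons averaged over the 6 libraries. LOXL2 was highest at 494 (lowest to highest library 444 to 510), followed by LOXL1 at 375 (332 to 418). LOXL4 at 99.7 (86.2 to 109) and LOXL3 at 88.4 (77.6 to 101) came next, and LOX was lowest at 41.0 (35.2 to 45.6). The ranges of neighbours did not overlap except for LOXL4 and LOXL3, whose order was not separable. With the length of the longest transcript in place of merged exons, LOXL3 at 108 stood above LOXL4 at 99.7, and the other places were kept. Without DMSO replicate 1 the means were 504, 383, 102, 90.5 and 40.4 in the same order, and again LOXL4 and LOXL3 alone overlapped. LOXL2 was above 88.1% of the genes tested and LOX above 30.9%.

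LOXL2 and LOXL1 together made most of the family's signal per kilobase. In DMSO, LOXL2 gave 44.5% of it, LOXL1 35.1%, LOXL4 8.54%, LOXL3 8.34% and LOX 3.62%. With the drug the shares were 45.6%, 33.2%, 9.65%, 7.74% and 3.90%. The summed level per kilobase was 984, 1161 and 1148 in the DMSO libraries and 1118, 1092 and 1083 in the drug-treated ones, means of 1098 ± 98.4 and 1098 ± 18.1 (SD, n = 3 each). The sum was thus nearly equal between the groups, with a ratio of 1.00, and the lowest of the 6 sums was that of DMSO replicate 1. Without that library the DMSO mean was 1154 (n = 2) and the ratio 0.951, and the DMSO shares were 44.1% for LOXL2, 35.7% for LOXL1, 8.42% for LOXL4, 8.57% for LOXL3 and 3.17% for LOX. These values without 1 library were added after the data had been seen.

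**Figure D2:**
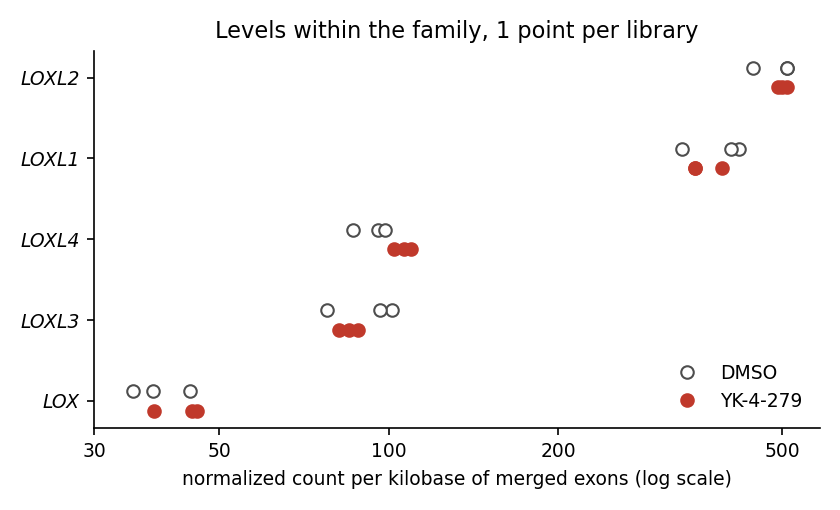
Level of each lysyl oxidase gene in normalized counts per kilobase of merged exons on a log axis, 1 point per library (open points DMSO, filled points drug). LOXL2 (444 to 510) and LOXL1 (332 to 418) lie above the other members in every library, LOXL4 and LOXL3 overlap, and LOX (35.2 to 45.6) is lowest.

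DMSO replicate 1 differed from the other 2 DMSO libraries in a way that ran with transcript base composition over all genes. LOX, whose longest transcript has a GC content of 39.6%, was 0.28 higher on the log2 scale in replicate 1 than in the mean of the other 2. LOXL1, with 67.6% GC, was lower there, with a difference of -0.31. The 3 members of the scavenger receptor branch have 55.4% to 57.5% GC and differed by -0.17 for LOXL4, -0.20 for LOXL2 and -0.35 for LOXL3. Over all genes tested with a known GC content, the median difference was 0.21 for the 2388 genes with at most 40% GC and -0.28 for the 1924 genes above 60%, with 0.10 and -0.11 in the classes between. All 5 members differed in the direction of their own class, each by more than the median of that class, with LOXL3 the farthest from it. How far base composition accounts for the members' values was not tested.

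**Figure D3:**
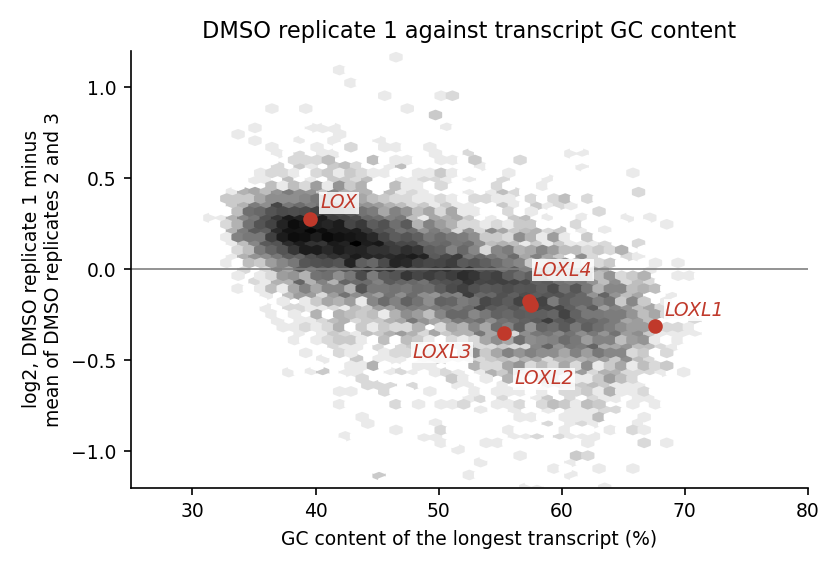
Difference on the log2 scale between DMSO replicate 1 and the mean of DMSO replicates 2 and 3, against the GC content of the longest transcript in percent. Grey cells are the 13602 genes tested with a known GC content, darker where there are more genes (log scale of density), and red points are the lysyl oxidase genes. LOX at 39.6% GC lies above 0 and the other 4 members, at 55.4% to 67.6% GC, lie below 0, LOXL3 lowest at -0.35.

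Without DMSO replicate 1, LOXL1 was called lower with the drug, with a log2 fold change of -0.18 (SE 0.05, 95% confidence interval -0.29 to -0.07, limma adjusted p = 0.0151), a change of -11.8%, and all 3 drug-treated libraries lay below both remaining DMSO libraries. In that fit 8.46% of all genes tested were called lower, LOXL1 being 1 of 1179 genes. LOXL3 had a like value of -0.22 (adjusted p = 0.0678), LOX 0.22 (adjusted p = 0.199) and LOXL4 0.12 (adjusted p = 0.399), none of them called. LOXL2 changed sign to -0.03 (adjusted p = 0.748). With all 6 libraries kept and the smooth dependence on GC and transcript length taken out of each, the fit gave LOXL1 -0.14 (limma adjusted p = 0.0478), with 7.49% of all genes called lower, and LOXL3 -0.14 (adjusted p = 0.278), LOX 0.22 (adjusted p = 0.191) and LOXL4 0.13 (adjusted p = 0.315). LOX and LOXL4 were thus above 0 and LOXL1 and LOXL3 below 0 in all 3 fits.

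**Figure D4:**
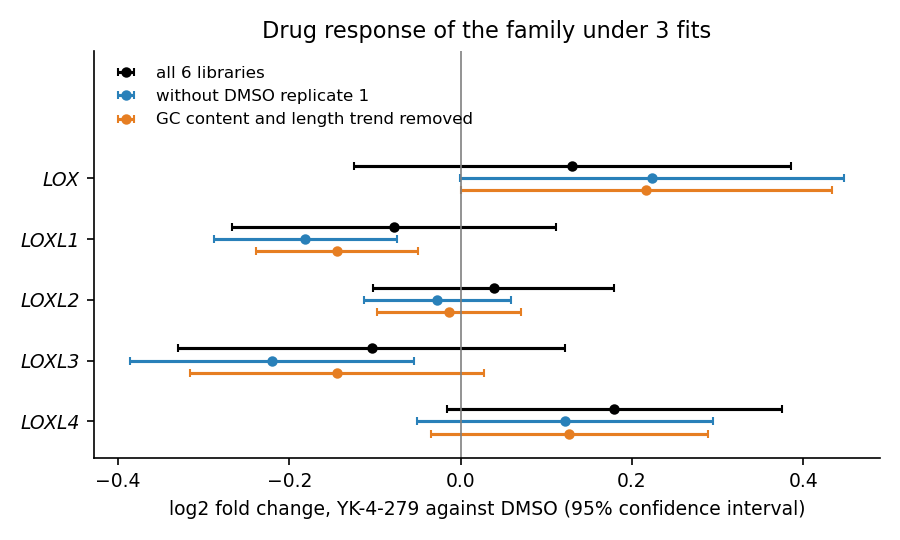
Log2 fold change of each lysyl oxidase gene between drug and DMSO with its 95% confidence interval, from all 6 libraries (black), without DMSO replicate 1 (blue) and with the dependence on GC and transcript length taken out (orange). The LOXL1 interval includes 0 with all libraries (-0.27 to 0.11) and lies below 0 without DMSO replicate 1 (-0.29 to -0.07).

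Members shared patterns over the 6 libraries to different degrees, described here by Pearson's r of log2 values with no test, since the points share the same 6 libraries and their base composition differences. LOXL1 and LOXL3 were most alike (r = 0.96), followed by LOXL2 and LOXL4 (0.76) and LOXL2 and LOXL3 (0.70), whereas LOX ran opposite to LOXL3 (-0.78). Without DMSO replicate 1, over 5 libraries, LOXL1 and LOXL3 had 0.93 and LOX and LOXL3 -0.75, but LOXL2 and LOXL4 had -0.21, LOXL2 and LOXL3 0.51 and LOXL1 and LOXL4 -0.97 (0.07 with all 6). LOX and LOXL2 then had -0.92 (-0.60 with all 6), and LOXL3 and LOXL4 -0.92 (0.09 with all 6). Among 10698 genes with a mean of at least 100, those most like LOXL1 were RAI1 (0.999), DOT1L (0.992) and LRRC10B (0.991), and those most like LOXL3 were SPEG (0.999), TTYH3 (0.996) and ARHGEF25 (0.996). LOXL2 was nearest to SLC39A7 (0.998), SHF (0.995) and MTCH1 (0.994). LOXL4 was nearest to ANXA2R-OT1 (0.993), PLEKHG4B (0.988) and CASC3 (0.987), and LOX to ZNF483 (0.982), FAM177A1 (0.978) and WWC2 (0.975). Of the 10698 genes, 233 reached 0.95 with LOXL2, 129 with LOXL3, 79 with LOXL1, 65 with LOXL4 and 11 with LOX. Without DMSO replicate 1 the 15 named genes had r from 0.940 to 0.999 with their member. They had been chosen by r over all 6 libraries, which include these 5, so this is no independent check.

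Several members overlap other genes, and the setting of strand in the read counting was not given in the sources used here. LOXL3 shares the most, 936 exonic bases or 20.7% of its merged exons, with HTRA2, a mitochondrial protease encoded on the opposite strand, and 216 with DOK1, a docking protein, also on the opposite strand. HTRA2 had 493 ± 62.7 (SD, n = 3) in DMSO and 613 ± 48.9 (SD, n = 3) with the drug, without overlap between the groups and with a log2 fold change of 0.32 (limma adjusted p = 0.102). It was called higher under 4 of 18 alternatives, among them without DMSO replicate 1 (0.23, adjusted p = 0.0303), while DOK1 had 0.48 (adjusted p = 0.210) and was called under none of its 17. Both differences have the opposite sign to that of LOXL3. LOXL1 shares 335 bases, 9.21% of its exons, with its antisense RNA LOXL1-AS1, which had between 281 and 319 normalized counts and a log2 fold change of 0.04 (limma adjusted p = 0.873). LOX shares 138 bases with SRFBP1 on the opposite strand, and LOXL2 120 bases with ENTPD4 on its own strand. Their log2 fold changes were 0.10 (adjusted p = 0.615) and 0.03 (adjusted p = 0.857). LOXL2 also shares 178 bases with LOXL2-AS1, and LOXL4 152 bases with a long noncoding RNA, both on the opposite strand and neither with a row under that name in the table used here. The part of shared reads in these values was not tested.

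Genes that work with the lysyl oxidases were followed in 10 lists, which held 104 genes, of which 86 had a mean of at least 10. Of the 86, 2 were called higher and 2 lower, or 4.65% against 3.41% of all genes tested, with a median log2 fold change of -0.01, the same to 2 decimals as over all genes. The 4 were COL1A1 and TNXB, which rose, and ADAMTS3 and CRTAP, which fell.

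Among the substrates of the enzymes 1 gene was called with all 6 libraries. Of 12 fibrillar collagen and elastin genes 9 were tested, and COL1A1, the alpha 1 chain of collagen I, had 636 ± 56.4 (SD, n = 3) in DMSO and rose to 805 ± 26.5 (SD, n = 3), by 0.34 on the log2 scale (limma adjusted p = 0.0375). None of the other 8 was called, and the median of the 9 was 0.13. COL1A2, the partner chain, was under the minimum at 8.81 and 9.83. COL5A2, a chain of collagen V and the substrate with the highest mean count, had 17212 and 17462 (0.02, adjusted p = 0.874), and ELN, elastin itself, had -0.12 (adjusted p = 0.402) and, without DMSO replicate 1, -0.21 (adjusted p = 0.000167, called lower). In that fit COL2A1 was -0.26 (limma adjusted p = 3.6e-06) and COL5A1 -0.14 (adjusted p = 0.00892), both also called lower. With all libraries they had -0.18 (adjusted p = 0.163) and -0.03 (adjusted p = 0.854). COL1A1 without DMSO replicate 1 was 0.28 and still called higher (adjusted p = 0.00161). Of the 6 collagen IV genes, the basement membrane substrate tied to LOXL2, 3 were tested and none was called. COL4A2 gave 0.04 (adjusted p = 0.896) with all libraries and -0.15 (adjusted p = 0.00825, called lower) without DMSO replicate 1.

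Of 21 proteins of the elastic fibre scaffold or that dock the enzymes, 16 were tested. TNXB, the matrix protein tenascin-X, had 43.6 ± 1.67 (SD, n = 3) in DMSO and rose to 69.6 ± 0.983 (SD, n = 3), by 0.66 on the log2 scale (limma adjusted p = 0.0497). TNXB has a near-identical pseudogene copy, so its reads are uncertain, and the call was lost under 12 of 17 alternatives. FN1, fibronectin, to which LOX binds, had the highest mean count of the list and a log2 fold change of -0.06 (adjusted p = 0.630). Without DMSO replicate 1, EMILIN1 was -0.20 (limma adjusted p = 0.00046) and MFAP2 -0.36 (adjusted p = 0.0269), both called lower. In that fit THBS1 at 0.15 (adjusted p = 0.0180) and TNXB at 0.67 (adjusted p = 0.0214) were called higher. Of the 9 proteases and enhancers of propeptide processing, 8 were tested. BMP1, the protease that cuts the propeptide of LOX, had 574 in DMSO and 566 with the drug, and FURIN, which activates it and had the highest mean count of these, differed by 0.18 on the log2 scale (adjusted p = 0.388), by 0.05 without DMSO replicate 1 and by 0.30 without DMSO replicate 2. ADAMTS3, a procollagen N-propeptidase, had 440 ± 45.8 (SD, n = 3) in DMSO and fell to 317 ± 6.12 (SD, n = 3), with a log2 change of -0.47 (limma adjusted p = 0.0186). Without DMSO replicate 1, ADAMTS3 was -0.38 (limma adjusted p = 0.00135) and PCOLCE, of the same list, -0.24 (adjusted p = 0.00428), both called lower.

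Collagen lysines are hydroxylated and chains folded before the lysyl oxidases act, and 16 of the 18 genes of that list were tested. CRTAP, a subunit of the prolyl 3-hydroxylation complex, had 2417 ± 14.0 (SD, n = 3) in DMSO and fell to 2019 ± 65.5 (SD, n = 3), with a log2 change of -0.26 (limma adjusted p = 0.0285). P4HB, protein disulfide isomerase, with the highest mean count of the list, had -0.05 (adjusted p = 0.622). The median of the 16 was -0.03. Without DMSO replicate 1, COLGALT1 was -0.18 (limma adjusted p = 0.00165), FKBP10 -0.15 (adjusted p = 0.0228) and P3H3 -0.21 (adjusted p = 0.0237), all called lower. Copper supply, which the enzymes need in the secretory pathway, showed 0 of 8 tested genes called: MT2A, a metallothionein with the highest mean count, had 0.05 (adjusted p = 0.691), and ATP7A, the pump that loads copper into the secretory pathway, had -0.20 (adjusted p = 0.399) and, without DMSO replicate 1, -0.03. Of the other copper amine oxidases 2 of 3 were tested and none was called. AOC2, the one with the higher mean count, had 41.7 and 58.0 normalized counts, a log2 fold change of 0.47 (adjusted p = 0.211).

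**Figure D5:**
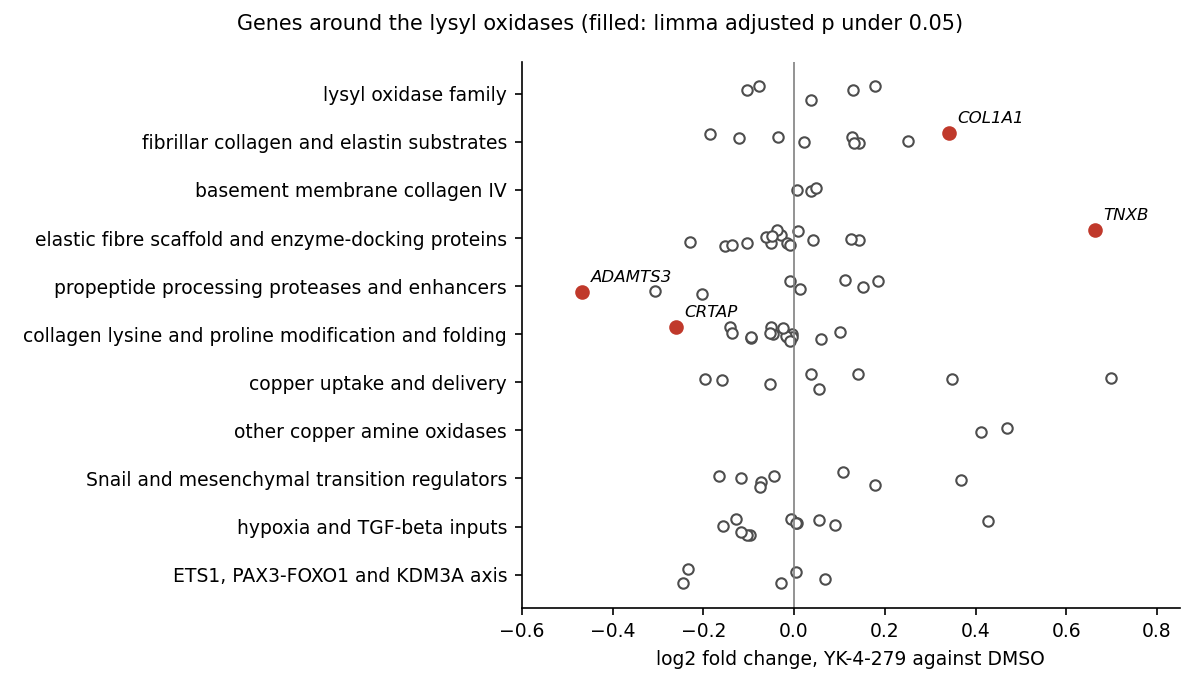
Log2 fold change between drug and DMSO for each tested gene of the lysyl oxidase family and of the 10 lists of genes around it, 1 point per gene with vertical scatter for legibility. Filled points passed the limma test: COL1A1 and TNXB higher, ADAMTS3 and CRTAP lower. Members of the lysyl oxidase family lie between -0.10 and 0.18 and none is filled.

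No upstream regulator known from other systems passed the test with all 6 libraries. Of the Snail and mesenchymal transition list, whose SNAI1 protein is a known partner of LOXL2 and LOXL3, 0 of 8 tested genes were called. SNAI1 had 2679 and 2886 normalized counts (0.11, adjusted p = 0.323), VIM, vimentin, had -0.04 (adjusted p = 0.781), and CDH1, the epithelial cadherin, was near 0. Of the hypoxia and TGF-beta list 0 of 11 were called, with TGFBR1, a TGF-beta receptor with the highest mean count, at -0.10 (adjusted p = 0.420). Without DMSO replicate 1, ZEB2 was 0.26 (limma adjusted p = 3.7e-05) and TGFB3 0.40 (adjusted p = 0.0217), both called higher. TGFB1 was then -0.14 and called lower (adjusted p = 0.0337). With all libraries ZEB2 had 0.18 (adjusted p = 0.212), TGFB3 0.43 (adjusted p = 0.0599) and TGFB1 -0.16 (adjusted p = 0.168).

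With all 6 libraries the genes of the axis the drug was chosen for were not called either, while DHX9 and FOXO1 were called lower under 5 and 4 of the 18 alternatives. ETS1, the ETS factor of interest, had 3359 and 3370 normalized counts (0.01, limma adjusted p = 0.974), and KDM3A, a histone demethylase, had -0.03 (adjusted p = 0.893). DHX9, an RNA helicase that the drug is known to keep from an ETS fusion protein, had 9462 and 8026 without overlap (-0.23, adjusted p = 0.0735), and without DMSO replicate 1 it was -0.16 (adjusted p = 0.00376). PAX3 had 0.07 (adjusted p = 0.616) and FOXO1 -0.25 (adjusted p = 0.128), the latter -0.14 without DMSO replicate 1 (adjusted p = 0.0471). These gene values do not separate the fusion transcript from the 2 normal genes.

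The calls outside the family were close to the threshold. COL1A1, ADAMTS3 and CRTAP kept their direction under all 18 alternatives and lost the call under 6, 5 and 7 of them. Without drug-treated replicate 1, 2 or 3, 0 of the 86 genes were called in each case, and without DMSO replicate 1 the count was 20.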

How the data were processed

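RNA of Rh30 cells was isolated with TRIzol and prepared as directional mRNA libraries. The authors trimmed the reads, mapped them with STAR on hg38, took gene counts from STAR and ran DESeq2. The submitters' processing notes name STAR 2.7.9a and DESeq2 1.44.0. The annotation and the strand setting are not given in the sources used here. The deposited table holds, per gene, a signal equal to the read count over the library's size factor. Whole reads were recovered for 100% of values (tolerance 1e-06), between 16724650 and 24677433 per library. Of 35269 rows, 1 had no gene name and held at most 6 reads per library.

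Groups came from the labels. The drug and DMSO groups (3 libraries each) were compared by limma 3.58.1 under R 4.3.3, fitted with lmFit and then eBayes (trend on), with values as log2(normalized count + 1), a scale that understates changes of low genes. Genes needed a mean of 10 or more (13930 genes), and tests were two-sided, with Benjamini-Hochberg adjustment over all of them and a threshold of 0.05. Replicate numbers were not used as a block. Recovered reads were tested with edgeR 4.0.16 and DESeq2 1.42.0 as alternatives. The statistics were tested on simulated counts that had no dependence on base composition, so that test does not cover the shift of DMSO replicate 1. Exon lengths, GC content and overlaps came from GENCODE on hg38, and 97.6% of tested genes had them. Promoter windows came from RefSeq.

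The family, the lists and the alternatives were chosen with earlier results of these data known. Named were the family, in each list the member with the highest mean and those called (of the ETS1 axis all), the 3 genes most like each member, and genes overlapping a member. COL1A2, ELN, BMP1, ATP7A, SNAI1 and CDH1, and the single markers, were named for their roles after their values had been seen. Genes named because they were called without DMSO replicate 1 were also picked after their values had been seen.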

Additional observations from a re-analysis of the deposited data

How the results depend on the processing

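The count of lysyl oxidase genes called stayed at 0 under 16 of 18 alternatives and was 1 (LOXL1, lower) without DMSO replicate 1 and with the trend on GC and transcript length taken out, so that leaving out a library gave 0 to 1. LOXL1 was -0.14 with that trend removed and ran from -0.18 to -0.015 when each library was left out, and with the trend removed and a replicate block its adjusted p was 0.0677. LOXL2 was -0.014 with the trend removed, with or without the block, and ran from -0.028 to 0.072 when each library was left out. LOX, LOXL3 and LOXL4 kept their direction and were not called under any of the 18, with adjusted p-values no lower than 0.185, 0.0678 and 0.271. With the longest transcript as length, LOXL2 was at 794, LOXL1 at 489 and LOXL3 at 108 normalized counts per kilobase.

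The 475 genes called became 1599 with the trend removed, 1504 with the block added, 33 with eBayes without trend (30 higher, 3 lower), 180 with the replicate block alone and 277 with quantile normalization, 132 higher and 145 lower, and ranged from 19 to 1823 (without DMSO replicate 1) when each library was left out, with 242 without DMSO replicate 3 and 19, 23 and 46 without drug-treated replicates 1, 2 and 3, of which 15, 16 and 28 were higher and 4, 7 and 18 lower. edgeR called 465 and DESeq2 623. The 4 calls around the family became 15, 14, 1, 0 and 2 in the same order, and 0 to 20 when each library was left out: 20 without DMSO replicate 1, 1 without DMSO replicate 3 and 0 without each drug-treated library. Same-numbered samples of the groups did not deviate together (correlations -0.10, -0.03 and -0.03), so the numbers were not taken to pair them.

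Genes not called changed sign in places. With the trend on GC and length taken out, with and without the block, COL4A2 was -0.028, KDM3A 0.011 and MT2A -0.012. With quantile normalization FN1 was 0.003495, KDM3A 0.018 and P4HB 0.017. When each library was left out, COL4A2 ran from -0.15 to 0.15, COL5A2 from -0.028 to 0.059, ETS1 from -0.031 to 0.031, FN1 from -0.10 to 0.001569, KDM3A from -0.090 to 0.088 and VIM from -0.089 to 0.037. The cause of these shifts was not tested. Within the family depth limits LOX most, at 197 to 298 reads per library, and several genes named outside it had fewer, such as MYH8 with 7 to 28.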
